A study of Mus musculus with 6 samples.

Results

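Peroxisome enzymes, peroxisomal membrane transporters and peroxins were examined in liver RNA of male C57BL/6J mice that had drunk source water or distilled water for 90 d. The members were 40 genes chosen by name for their place in the peroxisome, 29 enzymes and transporters and 11 Pex genes, and were read from the probe sets that the platform annotation assigns to them alone. Of these, 38 were measured, 28 enzymes and transporters and 10 Pex genes, among 12393 genes measured in all. Agps and Pex10 had no such probe set and were not analysed here. The source water group (the "Drinking source water" arrays) and the control group (distilled water) each held 10 male C57BL/6J mice, of which 9 gave liver, and each array was hybridised with RNA from the livers of 3 mice homogenised together, giving 3 arrays per group. No age of the mice and no analysis of the water was found in the sources used here. Since each replicate averages several animals, p-values measure the spread between pools, which understates the spread from mouse to mouse.

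Peroxisomes are membrane-bound organelles that shorten very long and branched fatty acids by beta-oxidation, trim methyl-branched fatty acids by alpha-oxidation, start the synthesis of ether lipids, and hold oxidases that release hydrogen peroxide. Hepatocytes are rich in them, and in rodents the fatty acid receptor PPAR-alpha raises the genes of the beta-oxidation enzymes and the number of the organelles. The peroxins, encoded by the Pex genes, insert membrane proteins, import matrix enzymes and govern peroxisome division. Bulk liver RNA cannot tell fewer cells of a type from less RNA per cell.

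Promoter windows are shown first, because the members differed in promoter composition by class and because PPAR-alpha binds a direct repeat known as DR1. The RefSeq promoter table (build GRCm38.p6, 250 bases before to 50 after each gene start) held 33 of the 40 members, with 40 windows. Crot, the member with the largest difference between groups, lies on the minus strand with its window at chr5:8997097-8997396, which held 29 CG dinucleotides, an observed over expected ratio of 0.797. Acaa1b, a thiolase gene, lies on the minus strand with its window at chr9:119157044-119157343 and held 4 CG dinucleotides, a ratio of 0.284. Acox2, an oxidase of branched-chain acyl-CoA and bile acid precursors, is the only member with a DR1 match and is shown as the stretch at chr14:8258798-8258850 on the minus strand. Capitals mark CG in the first pair of sequences and the match in the last.
Crot: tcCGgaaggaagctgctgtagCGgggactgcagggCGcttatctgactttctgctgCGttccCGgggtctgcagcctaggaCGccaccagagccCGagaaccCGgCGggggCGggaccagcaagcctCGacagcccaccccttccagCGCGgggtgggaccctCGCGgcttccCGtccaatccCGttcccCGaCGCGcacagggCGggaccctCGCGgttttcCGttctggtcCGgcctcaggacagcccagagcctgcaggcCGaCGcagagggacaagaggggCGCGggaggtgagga
Acaa1b: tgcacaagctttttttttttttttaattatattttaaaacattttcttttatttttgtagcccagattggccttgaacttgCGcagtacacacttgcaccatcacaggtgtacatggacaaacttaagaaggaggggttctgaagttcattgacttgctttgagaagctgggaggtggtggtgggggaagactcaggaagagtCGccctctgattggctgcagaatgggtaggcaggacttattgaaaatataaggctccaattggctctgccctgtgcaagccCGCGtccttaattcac
Acox2: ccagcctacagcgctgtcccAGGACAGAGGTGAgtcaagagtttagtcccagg

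The DR1 motif searched was AGGTCA, then any base, then AGGTCA again, on both strands and with at most 2 mismatches in its 12 fixed letters. It was found in 1 of 33 member genes, against 4.4% of the 27025 genes in the table and 3.86% of its 32851 windows of the same length. The window of Crot came no closer than 4 mismatches, which says only that these letters are not in this window. The Pex genes had a median CG observed over expected ratio of 0.846 over 9 genes, the enzymes and transporters one of 0.52 over 24 genes, and all genes of the table one of 0.39. The members ran from 0.127 to 1.04 when windows of a gene were averaged. These are descriptions, with no test.

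Expression was compared between source water and control with limma across all 22626 probe sets. The median log2 signal was 5.79 to 5.83 on the source water arrays and 5.81 to 5.86 on the control arrays, and pairs of arrays had correlations of 0.985 to 0.994 over probe sets, given as a description. Among the members, Crot stood furthest from 0 at 2.46-fold higher in source water, and Ehhadh followed at 2.11-fold with pools that disagreed. Pxmp4, Acaa1b and Ech1 were modestly higher and Pipox modestly lower. The 10 Pex genes all lay within 0.16 of 0 on the log2 scale by the brightest probe set of each. None of the 38 members passed limma's test after Benjamini-Hochberg adjustment over all probe sets, against 0.0323% of all genes, and 5 had an unadjusted limma p under 0.05, against 6.76% of all genes. The number of arrays limits the precision.

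**Figure D1:**
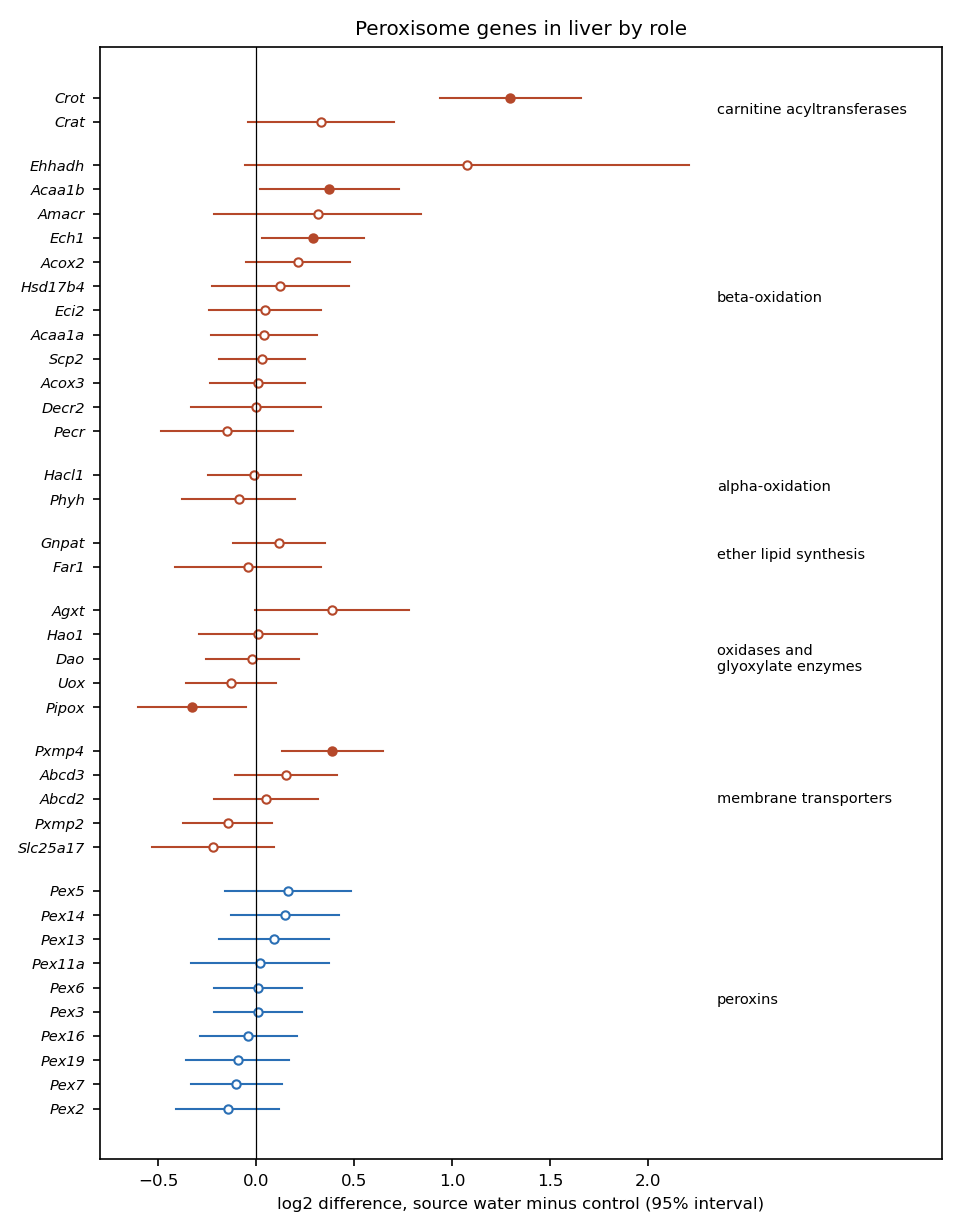
Log2 differences, source water minus control, for the 38 measured members (x axis), grouped by role down the page, with 95% intervals from limma. Filled points had an unadjusted p under 0.05. Crot has the highest value at 1.30, with Ehhadh at 1.07 and an interval that covers that of Crot, while all 10 peroxins (blue) lie between -0.15 and 0.16.

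The carnitine acyltransferases hand acyl groups to carnitine so that chain-shortened products can leave the peroxisome. Crot, carnitine octanoyltransferase, which acts on medium chains, had log2 signals of 13.10, 12.74 and 13.01 on the source water arrays, against 11.76, 11.38 and 11.82 on the control arrays. The groups did not overlap, and the lowest source water array lay well above the highest control array. The means were 12.95 ± 0.19 in source water and 11.65 ± 0.24 in control (log2 signal, SD, n = 3 each). The log2 difference was 1.30 ± 0.16 (SE), with a 95% interval of 0.94 to 1.66 and a limma adjusted p of 0.0516. With each array left out in turn it stayed between 1.16 and 1.40, and the limma adjusted p ran from 0.0144 to 0.489 over all 14 alternatives. Crat, carnitine acetyltransferase, which acts on short chains, had log2 signals of 7.72, 7.24 and 7.42 in source water, against 6.94, 7.08 and 7.37 in control. Its groups overlapped, since the second source water pool lay below the third control pool. The log2 difference was 0.33 ± 0.16 (SE; limma unadjusted p = 0.0769), while a second, dimmer probe set of Crat differed by -0.26, so the mean of both differed by 0.04. Leaving out 1 array moved the brighter one between 0.20 (source water pool 1) and 0.45 (control pool 3).

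Of the 12 enzymes of beta-oxidation and its side paths, 10 were higher and 2 lower in source water, with a median log2 difference of 0.08. On the higher side were 49.5% of all genes and 53.8% of genes with a signal above the median of all probe sets. Ehhadh encodes the bifunctional enzyme that hydrates and dehydrogenates enoyl-CoA, a classical PPAR-alpha target in rodents. Its log2 signals were 12.89, 10.85 and 12.69 in source water, against 11.36, 10.59 and 11.25 in control. Source water pools 1 and 3 lay far above every control pool, whereas pool 2 lay within the control range. The log2 difference of 1.07 ± 0.49 (SE) had a 95% interval of -0.06 to 2.21 (limma unadjusted p = 0.0604, adjusted p = 0.862). Source water pool 2 decides this value: without it the difference was 1.72 (limma unadjusted p = 0.000148, adjusted p = 0.125), and without source water pool 1 it was 0.70. The SD of Ehhadh was 1.12 among source water pools and 0.42 among control pools, while the median SD of the 28 enzymes and transporters was 0.13 among source water pools and 0.14 among control pools.

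Acaa1b encodes a peroxisomal thiolase, the last step of the cycle. It had log2 signals of 14.12, 13.79 and 14.10 in source water, against 13.79, 13.35 and 13.74 in control. The groups met at one point, where source water pool 2 and control pool 1 were nearly equal. The log2 difference was 0.37 ± 0.15 (SE), with a limma unadjusted p of 0.042, which stayed under 0.05 in 2 of 6 fits that left out an array, those without source water pool 2 and without control pool 1. Without control pool 2 the difference was 0.23. Its paralogue Acaa1a differed by 0.04 ± 0.12 (SE). A pair of probe sets that carry the symbols of both thiolases differed by 0.48 and 0.33, and since the transcripts are closely related, the signal cannot be assigned to Acaa1b alone.

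Ech1, an auxiliary isomerase for fatty acids with double bonds that also acts in mitochondria, had log2 signals of 12.75, 12.55 and 12.61 in source water, against 12.39, 12.22 and 12.43 in control. Every source water pool lay above every control pool. The log2 difference was 0.29 ± 0.11 (SE; limma unadjusted p = 0.0327), and the p stayed under 0.05 without source water pool 2 or control pool 3 and not in the other 4 fits. Acox2 also separated the groups, at 11.27, 11.28 and 11.19 in source water, against 11.09, 11.15 and 10.86 in control, with a log2 difference of 0.21 ± 0.12 (SE; limma unadjusted p = 0.102) that was 0.12 without control pool 3. Amacr, the racemase that prepares branched-chain substrates, differed by 0.31 ± 0.23 (SE), and its groups overlapped. It was 0.13 without source water pool 3, 0.10 without control pool 1 and 0.49 without control pool 2.

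The other members of this group lay near 0. Hsd17b4, the second bifunctional enzyme, differed by 0.12, and Eci2, an isomerase, by 0.04. Scp2, a thiolase and sterol carrier, differed by 0.03, and its 3 other probe sets by -0.24 to 0.15. Acox3, another branched-chain oxidase, differed by 0.01, with a signal below the median of all probe sets. The reductase genes Decr2 and Pecr differed by -0.00 and -0.15.

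**Figure D2:**
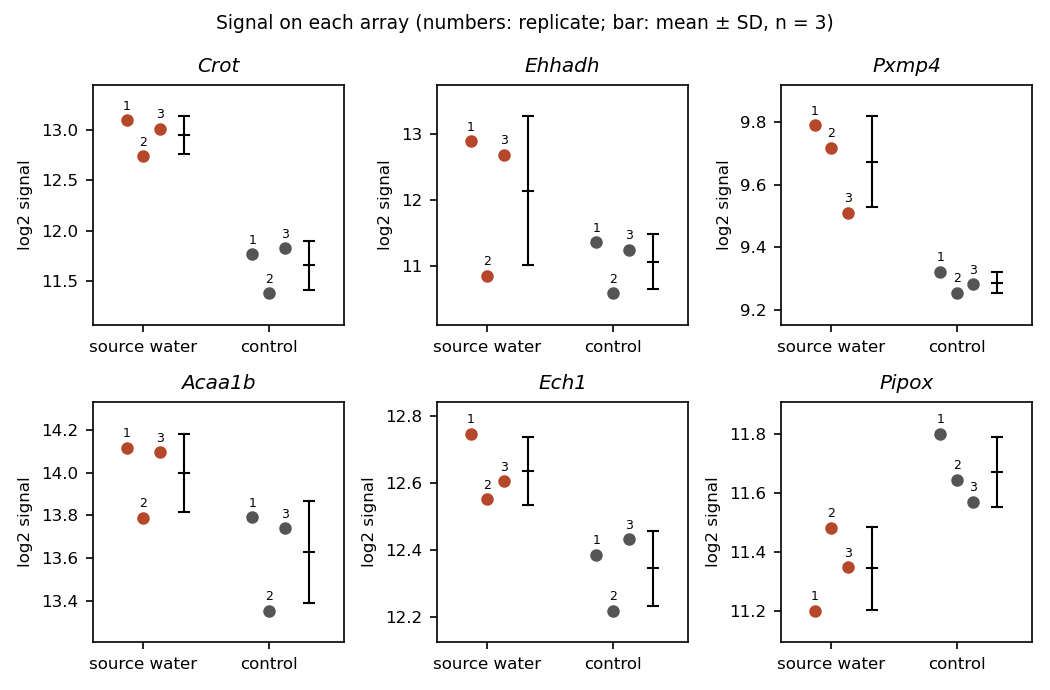
Log2 signal on each array (y axis) for 6 members, with source water pools left of control pools, replicate numbers beside the points, and the mean ± SD (n = 3) as a bar. Crot separates the groups on every array, while source water pool 2 of Ehhadh, at 10.85, lies inside the control range.

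Alpha-oxidation, which removes a carbon from phytanic acid, showed no sizeable difference. Phyh, the hydroxylase, differed by -0.09 ± 0.13 (SE), and Hacl1, the lyase that follows it, by -0.01 ± 0.10 (SE). Both limma 95% intervals lay within 0.5 of 0. In ether lipid synthesis, the acyltransferase Gnpat differed by 0.11 ± 0.10 (SE). The fatty acyl-CoA reductase Far1 differed by -0.04, and its 5 probe sets all had signals below the median of all probe sets. Differences can be understated at such signals, which was not tested here.

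The oxidases and glyoxylate enzymes differed in both directions. Pipox, an oxidase of pipecolic acid and sarcosine, had log2 signals of 11.20, 11.48 and 11.35 in source water, against 11.80, 11.65 and 11.57 in control. All source water pools lay below all control pools. The log2 difference was -0.33 ± 0.12 (SE; limma unadjusted p = 0.0252, adjusted p = 0.697). When 1 array was left out, the limma unadjusted p stayed under 0.05 in 3 of 6 fits but not without source water pool 1 or 3 or control pool 1, and the difference lay between -0.40 and -0.26. Agxt, the aminotransferase that turns glyoxylate into glycine, differed the other way, with log2 signals of 12.63, 12.21 and 12.14 in source water, against 11.73, 12.19 and 11.90 in control. Its groups overlapped, and the log2 difference was 0.38 ± 0.17 (SE; limma unadjusted p = 0.0536). Without source water pool 1 it was 0.23 (limma unadjusted p = 0.197), and without control pool 2 it was 0.51 (limma unadjusted p = 0.0178). Hao1, the oxidase that makes glyoxylate from glycolate, differed by 0.01 ± 0.13 (SE). Uox, urate oxidase, had 13.36, 13.37 and 13.28 in source water, against 13.40, 13.48 and 13.51 in control. Its groups did not overlap, but the log2 difference was -0.13 ± 0.10 (SE; limma unadjusted p = 0.228). Dao, the oxidase of D-amino acids, had a signal below the median of all probe sets and differed by -0.02.

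Among the membrane proteins, Pxmp4 differed the most. It had log2 signals of 9.79, 9.72 and 9.51 in source water, against 9.32, 9.26 and 9.28 in control. The groups did not overlap, and the control pools lay close together. The log2 difference was 0.39 ± 0.11 (SE), or 1.31-fold (limma unadjusted p = 0.00846, adjusted p = 0.491), and the unadjusted p stayed under 0.05 in all 6 fits that left out an array. Pxmp2, a channel-forming membrane protein, had 11.87, 11.79 and 11.90 in source water, against 11.97, 12.04 and 11.99 in control. Its groups did not overlap, with source water lower by a log2 difference of -0.15 ± 0.10 (SE; limma unadjusted p = 0.173). Abcd3, a transporter that brings branched-chain and dicarboxylic acyl-CoA into the organelle, differed by 0.15 ± 0.11 (SE). Abcd2, its relative for very long chains, differed by 0.05 at a signal below the median of all probe sets. Slc25a17, a carrier of CoA and other cofactors, differed by -0.22 ± 0.14 (SE), or -0.10 without control pool 2. Its second, dim probe set differed by -0.14.

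The 10 peroxins are given by their step of peroxisome assembly. Pex3, Pex16 and Pex19, which place proteins in the peroxisomal membrane, differed by 0.01, -0.04 and -0.09 on the log2 scale. Pex5 and Pex7, the receptors that carry matrix enzymes to the organelle, differed by 0.16 and -0.10, and Pex13 and Pex14, which form the docking site, by 0.09 and 0.14. Pex2, a ubiquitin ligase of the receptor cycle, differed by -0.15, and Pex6, an ATPase that recycles the receptor, by 0.01. Pex11a, which promotes peroxisome division and is a PPAR-alpha target in rodents, had log2 signals of 9.43, 9.76 and 9.73 in source water, against 9.75, 9.34 and 9.76 in control, a log2 difference of 0.02 ± 0.15 (SE).

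Pex7 was the only one of the 10 peroxins whose groups did not overlap, at 10.45, 10.57 and 10.61 in source water, against 10.65, 10.65 and 10.64 in control (log2 signal; limma unadjusted p = 0.34). The limma unadjusted p of the 10 peroxins ran from 0.232 to 0.946. Their 95% intervals together spanned -0.41 to 0.48. By the brightest probe set of each gene, differences larger than 0.5 in size on the log2 scale thus lay outside all 10 intervals. How far smaller ones were excluded varied by gene, with intervals of -0.22 to 0.23 for Pex3 and -0.33 to 0.37 for Pex11a. All 10 intervals covered 0. A second probe set of Pex19 differed by -0.28 (limma unadjusted p = 0.0632), the largest value in size among the 20 probe sets of the measured peroxins. Its 95% interval of -0.58 to 0.02 reached past 0.5 in size. So did that of a second, dim probe set of Pex13, at -0.45 to 0.57.

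**Figure D3:**
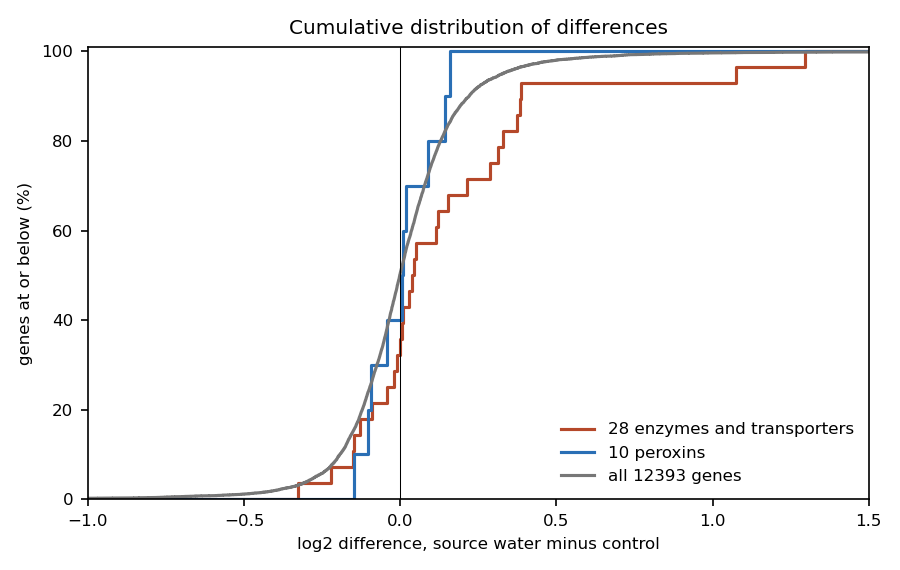
Cumulative share of genes (y axis, %) at or below each log2 difference, source water minus control (x axis), for the 28 enzymes and transporters, the 10 peroxins and all 12393 genes. The enzymes and transporters run to the right of all genes at the upper end, up to 1.30, and the peroxins end at 0.16.

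Set side by side, the classes had medians near 0, and the enzymes and transporters, which are more numerous, had the wider range. The 28 enzymes and transporters had a median log2 difference of 0.041 and ran from -0.33 to 1.30, the 10 peroxins a median of 0.008 and a range of -0.15 to 0.16, and all genes a median of -0.002. A log2 difference of at least 0.3 in size was found for 8 of 28 enzymes and transporters (28.6%) and 0 of 10 peroxins. The share was 9.74% among all genes and 13.9% among genes above the median signal, where all 10 peroxins lay. With only 10 peroxins, a count of 0 says little against such shares. Without Crot and Ehhadh, 6 of 26 enzymes and transporters (23.1%) differed by that size. The difference between the classes was not tested. Unadjusted limma p-values under 0.05 were found for 4 members on the higher side (10.5%), against 4.16% of all genes. On the lower side they were found for 1 (2.63%), against 2.6% of all genes. Of genes above the median signal, 6.46% were higher and 3.68% lower by this measure. Groups did not overlap for 4 members on the higher side, Crot, Pxmp4, Ech1 and Acox2, against 6.51% of all genes. They did not overlap for 4 on the lower side, Pipox, Uox, Pxmp2 and Pex7, against 5.03% of all genes. Each count was 10.5% of the members, against 9.07% higher and 6.0% lower among genes above the median signal. The count with an unadjusted limma p under 0.05 on the higher side, 4, was 2 without source water pool 1. Crot and Pxmp4 were the remaining members there. The count on the lower side, 1, was 0 without source water pool 1, source water pool 3 or control pool 1. The median of the enzymes and transporters was 0.071 without source water pool 2, 0.068 without source water pool 3 and 0.087 without control pool 1.

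In the authors' deposited table, Crot had a ratio of 2.46, Pxmp4 of 1.31, Ech1 of 1.22, Acaa1b of 1.29 and Pipox of 0.796. By the p-values of the authors' deposited table, 4 members were higher and 3 lower with a p under 0.05, and 0 of the 10 peroxins, against 7.68% of all genes. The lower ones there were Pipox, Pxmp2 and Uox.

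The pools were also set beside each other within a group, with no test. Source water pool 2 was the lowest of the source water pools for 13 of 28 enzymes and transporters (46.4%), against 31.4% of all genes, and control pool 2 was the lowest of the control pools for 13 of 28 (46.4%), against 33.5% of all genes. The same pools were lowest for 6 of 10 peroxins (60.0%) in source water and 5 of 10 (50.0%) in control. The median deviation of the enzymes and transporters from their mean over all arrays was 0.039, 0.016 and 0.017 on the source water arrays, against -0.016, -0.029 and -0.044 on the control arrays (log2), where pool 3 was the lowest. Crot, Ehhadh, Acaa1b and Ech1 were all lowest in pool 2 within each group, a set singled out after its values were seen. Same-numbered pools share no source that the labels name.

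**Figure D4:**
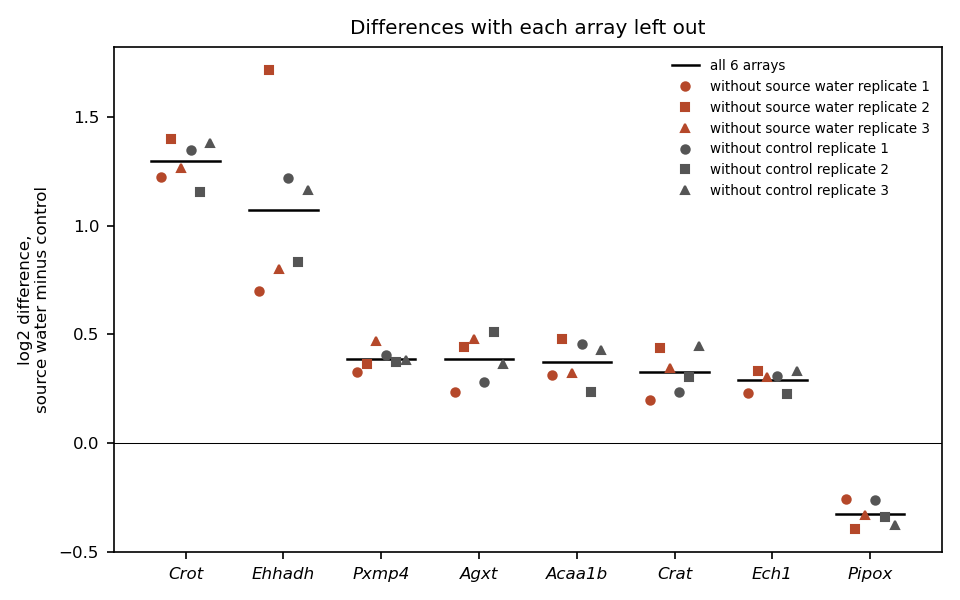
Log2 differences, source water minus control (y axis), for 8 members with all 6 arrays (black line) and with each array left out in turn (points). Crot keeps to 1.16 to 1.40, whereas Ehhadh ranges from 0.70 to 1.72.

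Of 24 measured enzymes and transporters outside the members, 3 were higher (12.5%, against 4.16% of all genes) and 0 lower (against 2.6%) with an unadjusted limma p under 0.05, with a median log2 difference of -0.01. Of genes above the median signal, 6.46% were higher and 3.68% lower with such a p. The furthest from 0 among the 24 was Acot3, an acyl-CoA thioesterase, at -0.96 ± 0.49 (SE; limma unadjusted p = 0.0887), and its relative Acot4 differed by -0.35. The groups of both overlapped. Lonp2, a peroxisomal protease, had log2 signals of 11.11, 11.04 and 11.06 in source water, against 10.69, 10.62 and 10.84 in control. Its groups did not overlap (log2 difference 0.35 ± 0.11, SE). Its second, dim probe set differed by 0.07, and the mean of both by 0.21 (limma unadjusted p = 0.0738). Dhrs4, a carbonyl reductase, differed by 0.32 ± 0.10 (SE), with 0.30 by its second probe set. Hsdl2, a dehydrogenase-like protein, differed by 0.71 ± 0.27 (SE), with 0.66 by its second probe set and overlapping groups. It was 0.43 without control pool 2 and 0.94 without control pool 3, and the limma unadjusted p was above 0.05 without source water pool 1 or 3 or control pool 2. Cat, which encodes catalase, the enzyme that breaks down hydrogen peroxide, differed by 0.05 ± 0.10 (SE).

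Of 5 further peroxins and fission genes, 1 had an unadjusted limma p under 0.05, on the lower side. Such a p on that side was found for 2.6% of all genes and 3.68% of genes above the median signal. Pex26, the membrane anchor of the recycling ATPases, had log2 signals of 6.97, 7.47 and 7.06 in source water, against 8.10, 7.95 and 7.81 in control. All source water pools lay below all control pools, and the log2 difference was -0.79 ± 0.16 (SE; limma unadjusted p = 0.000925, adjusted p = 0.185). It stayed between -0.94 and -0.69 when 1 array was left out. Pex26 was thus further from 0 than any of the 10 member peroxins.

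A further list held PPAR-alpha, its relatives Ppard and Pparg, and their partners and cofactors. Of its 12 measured genes, 0 were higher and 2 lower with an unadjusted limma p under 0.05. The share on the lower side was 16.7%, against 2.6% of all genes and 3.68% of genes above the median signal. Ppara, which encodes the receptor PPAR-alpha itself, had log2 signals of 10.05, 10.03 and 9.94 in source water, against 10.42, 10.15 and 10.38 in control. Its groups did not overlap, with a log2 difference of -0.31 ± 0.11 (SE; limma unadjusted p = 0.0249, adjusted p = 0.697). The limma unadjusted p was above 0.05 without source water pool 3, control pool 1 or control pool 3. The coactivator gene Ppargc1b differed by -0.42 ± 0.18 (SE), and its groups overlapped. It was -0.27 without control pool 1, and its limma unadjusted p stayed under 0.05 only without source water pool 3 or control pool 3. Rxra, the partner of the receptor, differed by -0.02 ± 0.11 (SE).

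Hepatocyte markers were strongly present, with a mean level of 13.71 to 13.93 in source water and 13.82 to 13.94 in control over 6 measured genes (log2 signal), and 0 of 6 had an unadjusted limma p under 0.05. Of 10 stellate cell and fibroblast markers, 2 were higher with an unadjusted limma p under 0.05 (against 4.16% of all genes), Col3a1 by 1.33 and Col1a2 by 0.50. The second, dim probe sets differed by 0.00 for Col3a1 and 0.16 for Col1a2, and the mean of the probe sets by 0.67 for Col3a1 and 0.33 for Col1a2. One more, Lrat, had such a p with a log2 difference of -0.27 (10.0% of the list, against 2.6% of all genes on the lower side). The signal of Lrat lay below the median of all probe sets. Of the 10, 6 had values above 0 and 4 below, with a median log2 difference of 0.12. Among those near 0 were Acta2 at 0.07, Col1a1 at -0.04, Des at -0.06 and Rgs5 at -0.07. The mean level of the list, with Col3a1 and Col1a2 included, was 7.12 to 7.24 in source water and 6.86 to 7.01 in control. By the same measure, 1 of 8 endothelial markers was higher (12.5%, against 4.16% of all genes), Stab2 by 0.39. Of the 8, 5 had values above 0 and 3 below, down to -0.23, with a median log2 difference of 0.07. Mean levels were 7.31 to 7.61 in source water and 7.07 to 7.55 in control. Of 10 Kupffer cell and macrophage markers 8 had values above 0, with a median log2 difference of 0.27, the highest of the marker lists. Marco at -0.16 and Cd5l at -0.00 lay below 0. A difference of at least 0.3 in size was found for 4 of the 10, from 0.32 for Adgre1 to 0.43 for Cd68. The share was 9.74% among all genes and 13.9% among genes above the median signal. Cd68 and Clec4f, the latter at 0.25, had the smallest unadjusted limma p of the list (0.054 and 0.129). None of the 10 had an unadjusted limma p under 0.05, with mean levels of 9.24 to 9.67 in source water and 9.002 to 9.821 in control. Of 8 T, NK and B cell markers 1 was higher with an unadjusted limma p under 0.05 (12.5%, against 4.16% of all genes), Cd79b by 0.33. Of the 8, 4 had values above 0 and 4 below, with a median log2 difference of 0.01. Mean levels were 5.08 to 5.18 in source water and 4.92 to 5.16 in control. Of 4 erythroid markers 1 was lower with an unadjusted limma p under 0.05 (25.0%, against 2.6% of all genes), Klf1, with a log2 difference of -0.61. The other 3 lay above 0, Alas2 at 0.18, Slc4a1 at 0.02 and Hba-a1 at 0.01, and the median of the 4 was 0.02. Mean levels of the 4 were 6.22 to 6.33 in source water and 6.32 to 6.52 in control. Lists of bile duct, neutrophil and kidney tubule markers had 0 genes with an unadjusted limma p under 0.05. The part of these cells in the differences of the members was not tested.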

How the data were processed

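Liver RNA was measured on 6 one-colour Affymetrix 3' expression arrays, 3 per group, each with a pool of 3 mice. The values that the authors deposited are log2 signals per probe set. RMA and Partek are named in the submitters' processing notes, with no version or settings. A further deposited table holds the authors' group means on the log2 scale with their p-value, their ratio, and a score that is the signed fold change, per the file headers. Which test gave those deposited p-values is not stated in the sources used here.

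The table lists 22690 probe sets, of which 64 are array controls and were not tested. Symbols came from the platform annotation, and 20351 probe sets matched a RefSeq gene table through Entrez identifiers, which changed 0 symbols. Probe sets with several symbols (691) or none (1555) named no gene. Each gene was represented by its probe set with the highest mean log2 signal. The groups were compared by limma (version 3.58.1, R 4.3.3) with lmFit and eBayes and without covariates. P-values were adjusted by Benjamini-Hochberg across the 22626 remaining probe sets, at a threshold of 0.05. The fit was also tested on simulated normal noise with 200 probe sets changed. After adjustment it recovered 0% of these at 1.5-fold, 95% at 2-fold and 100% at 4-fold. False calls numbered 0, 16 and 7. A failure to pass thus says little about differences of 1.5-fold or less. Promoters were scanned in Python 3.11.15.

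The members, lists and tests were chosen with earlier results of these data known. All 40 members are named. Array values are given for members with an unadjusted p under 0.05 or with separate groups that differ by at least 0.3 on the log2 scale, and some others were chosen after their values were seen. From each other list, up to 6 genes with an unadjusted p under 0.05 were to be named. A planned reading of protein ends was not run. Depth does not apply to arrays, and their number limits precision.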

Additional observations from a re-analysis of the deposited data

How the results depend on the processing

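With 14 alternatives, no sign changed among the 5 members with an unadjusted limma p under 0.05, and Crot and Pxmp4 kept such a p in all 14. Against 9 probe sets called and 0 members, limma-trend called 35 and 1, a repeated quantile normalization 30 and 1, a replicate block 45 and 1, and the unmoderated statistic 0 probe sets and 0 members. Averaging the probe sets of a gene called 1 member. The member called was Crot in each case (limma adjusted p 0.0144, 0.0301, 0.0235 and, for the mean of probe sets, 0.0389). The replicate block rests on numbers alone: the deviations of same-numbered arrays correlated at -0.07, 0.28 and 0.17, while the closest match to control replicate 1 was source water replicate 3. Leaving out 1 array gave 0 to 14 probe sets, 0 members after adjustment, 2 to 6 members higher and 0 to 1 lower with an unadjusted p under 0.05. The unmoderated statistic gave 3 lower. The median of the enzymes and transporters, 0.041, was 0.057 with arrays centred on their medians, 0.079 among probe sets above the median level or with a mean of at least 6, where 24 remained, and 0.040 to 0.087 when an array was left out. The median of the peroxins lay between -0.016 and 0.024 over all alternatives. The causes of these shifts were not tested. Alternatives for genes outside the members were chosen after seeing the data, and Col3a1 passed with the replicate block (limma adjusted p = 0.0453).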
